A study of Mus musculus with 12 samples.

Results

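H3K27ac, acetylation of a lysine in the tail of histone H3, was compared between mesenchymal stem cells (MSCs) of old and of young mice over 31104 autosomal regions, out of 31617 regions measured for the mark. All regions on the 19 autosomes were taken, and the other 513 lay on X or Y. The 31104 regions covered 323 Mb of the mouse genome (build GRCm38), at lengths from 0.5 to 615 kb with a median of 4.5 kb, and 8858 of them (28.5%) covered a transcription start site (TSS) of at least 1 protein-coding gene. The cells came from mice aged 3 to 5 months (young) or 18 to 22 months (old), and cells of both ages were grown at 2% oxygen only. CUT&RUN, in which an antibody directs a nuclease to marked chromatin of opened cells, gave 3 H3K27ac libraries per age. The cells of each sample were split between this antibody and one against H3K27me3. The labels gave neither strain, sex, genotype, tissue of origin nor batch, and did not say whether the 3 samples of an age came from separate mice, so the p-values measure the spread between these samples, which may be technical.

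MSCs are stromal cells with the capacity to give rise to bone, cartilage and fat. H3K27ac is placed by acetyltransferases such as p300 and CBP and removed by histone deacetylases, and it accumulates on promoters and enhancers that are in use. Long domains of the mark often cover genes that define a cell type, while short regions far from genes are often single enhancers. H3K27me3, which Polycomb complexes place on the same lysine, cannot coexist with acetylation of that residue on the same histone tail.

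The libraries held 2750953 to 5541429 reads, of which 33.4% to 41.4% lay in regions. Old replicate 2 was the shallowest library, and its log2 signal correlated least with the other libraries (Pearson r of 0.905 to 0.926 across regions, against 0.933 to 0.956 among the other 5). Read numbers are given at a common depth, as scaled signal in units of 1 read of a library of 4315925 reads, unless they are called reads as sequenced. Regions were named after the protein-coding gene whose TSS was nearest. The 10 MSC surface markers examined, among them Pdgfra, Thy1 and Cd44, all had an H3K27ac region over their promoter, with 2055 to 2116 summed reads in young and 2022 to 2203 in old libraries. Of 8 blood and macrophage markers 2 had one, Cd68, in a broad region of 44.5 kb, and Csf1r, in one of 5.5 kb. These 2 regions summed to 232.8 to 251.5 reads in young and 200.2 to 235.3 in old libraries. Of 6 endothelial markers 1 had one, Pecam1, with 14.1 to 17.7 reads in young and 15.5 to 23.8 in old libraries. None of the 4 muscle, 4 neural and 4 epithelial markers, such as Myod1, Sox10 and Epcam, had one. In such bulk samples, fewer cells of a type and less acetylation per cell cannot be told apart.

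The promoters of 4 genes over which H3K27ac changed are shown as the 250 bases before the RefSeq start (GRCm38.p6), each inside a region that differed between the ages. Acetylation over the first 3 was lower in old cells and over the last it was higher. Capitals mark matches on either strand to the letters of the TATA box (TATAAA), of the CAAT box (CCAAT) and of the GC box (GGGCGG), and in Hoxa13 a CAAT box directly adjoins a GC box. Over 31396 autosomal promoters of this length, TATAAA was present in 12.4%, CCAAT in 33.7% and GGGCGG in 33.0%, the median GC content was 52.4% and the median number of CpG was 6. The Hoxa13 promoter (chr6:52260881-52261130, minus strand) had 80.0% GC and 35 CpG, and that of Hoxd10 (chr2:74691641-74691890, plus strand) 65.6% GC and 20 CpG. That of Slc1a3 (chr15:8710808-8711057, minus strand) had 44.8% GC and 2 CpG, and that of Mical2 (chr7:112225586-112225835, plus strand) 66.0% GC and 17 CpG.
Hoxa13: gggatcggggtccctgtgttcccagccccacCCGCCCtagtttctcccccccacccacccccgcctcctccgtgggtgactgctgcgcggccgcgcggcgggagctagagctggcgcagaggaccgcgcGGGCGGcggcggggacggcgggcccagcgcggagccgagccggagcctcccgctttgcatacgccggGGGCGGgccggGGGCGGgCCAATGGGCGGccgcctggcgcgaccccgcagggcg
Hoxd10: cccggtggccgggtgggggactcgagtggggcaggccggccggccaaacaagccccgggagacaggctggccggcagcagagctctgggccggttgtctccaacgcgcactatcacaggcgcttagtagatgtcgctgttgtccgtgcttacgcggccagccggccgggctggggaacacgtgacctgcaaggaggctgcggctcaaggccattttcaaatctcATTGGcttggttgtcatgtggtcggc
Slc1a3: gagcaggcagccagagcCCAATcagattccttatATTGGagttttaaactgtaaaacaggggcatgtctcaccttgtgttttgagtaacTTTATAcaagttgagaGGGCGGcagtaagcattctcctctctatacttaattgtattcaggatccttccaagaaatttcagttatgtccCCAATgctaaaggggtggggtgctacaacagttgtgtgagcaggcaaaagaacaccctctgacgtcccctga
Mical2: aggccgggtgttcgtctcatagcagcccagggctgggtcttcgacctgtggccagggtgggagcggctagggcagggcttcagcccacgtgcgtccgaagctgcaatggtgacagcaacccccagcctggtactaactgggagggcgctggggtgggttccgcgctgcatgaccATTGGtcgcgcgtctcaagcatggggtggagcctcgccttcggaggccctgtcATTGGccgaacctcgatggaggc

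To find single regions that changed with age, the log2 signal of every region was compared with limma, and regions with an adjusted p under 0.05 were called. This called 26 of 31104 regions (0.0836%), of which 10 were higher (0.0322% of all regions) and 16 lower (0.0514%) in old cells. At an unadjusted p under 0.05, 2990 regions (9.61%) differed, 1456 upward (4.68%) and 1534 downward (4.93%). In all 26 called regions the 3 old libraries lay outside the range of the 3 young libraries, which held for 14.5% of all regions (7.16% upward and 7.38% downward). A count test on the recovered reads, the quasi-likelihood test of edgeR, called 94 regions (54 higher and 40 lower), including all 26. On the signal as deposited, without scaling between libraries, the median log2 fold change of all regions was -0.12 and 103 regions were called, 15 higher and 88 lower, so the changes below are relative to the typical region. The limma count rested on single libraries, since 2, 13 and 9 of the 26 were called without young replicate 1, 2 or 3, and 19, 3 and 20 without old replicate 1, 2 or 3. The regions of Hoxa13 and Mical2 were called in all 6 of these fits, those of Hoxd10, Akap5 and Sh2b2 in 4 or 5, 16 of the 26 in 2 or fewer, and the Sox6 region in 0.

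**Figure D1:**
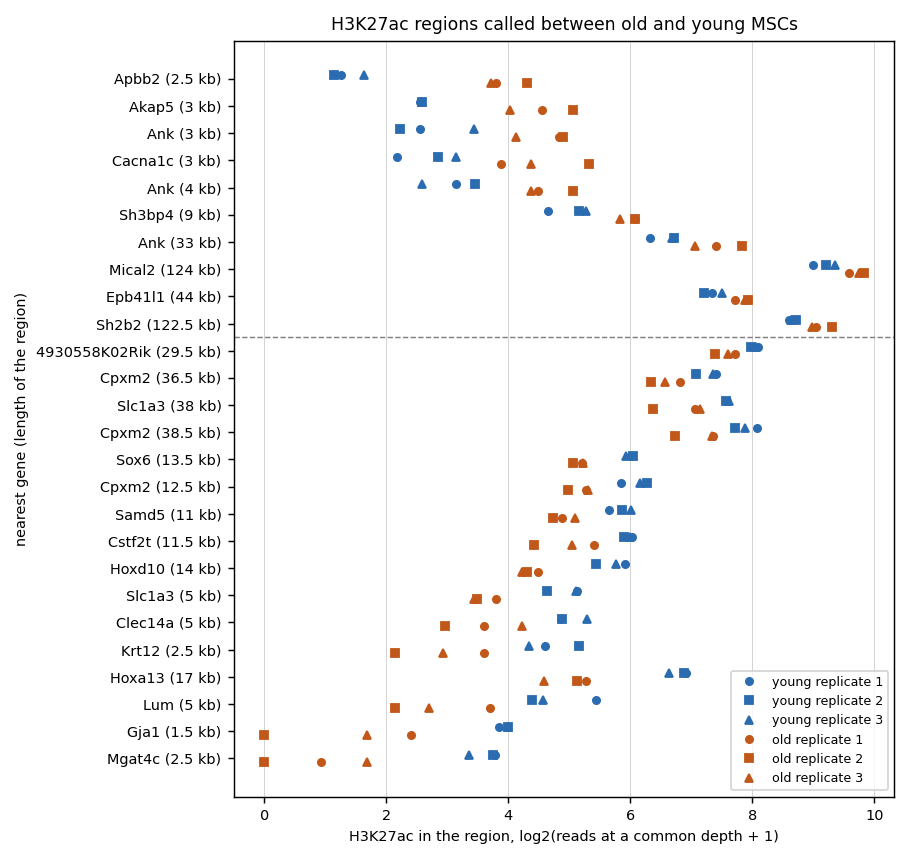
H3K27ac in the 26 called autosomal regions, as log2(reads at a common depth + 1) on the horizontal axis, with 1 point per library, blue for young and orange for old. The 10 regions above the dashed line were higher and the 16 below it lower in old cells, and within every region the ages do not overlap.

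The lower regions with the smallest adjusted p lay over posterior Hox genes, homeobox factors that specify the distal limb. The 17-kb region over Hoxa13 (chr6:52247001-52264000) held 119.8, 117.0 and 98.7 reads in the young libraries and 37.8, 33.9 and 23.1 in the old ones. The old libraries were all far below the young ones, with a log2 fold change of -1.81 ± 0.18 (SE; limma adjusted p = 6.46e-08). A 14-kb region over Hoxd10 and Hoxd9 (chr2:74685501-74699500) held 59.2, 42.3 and 53.2 reads in young and 21.5, 18.7 and 17.6 in old libraries. Here too a gap parted the ages, and the log2 fold change was -1.37 ± 0.22 (limma adjusted p = 0.00238).

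Slc1a3, a transporter of glutamate and aspartate, had 2 called regions, both lower. Its 38-kb promoter region held 191.7, 188.0 and 195.2 reads in young and 132.5, 81.5 and 140.8 in old libraries, lowest in old replicate 2 (log2 fold change -0.73 ± 0.14, limma adjusted p = 0.0419). An exonic region 62.4 kb from the TSS differed by -1.37 ± 0.27. Cpxm2, a member of the metallocarboxypeptidase family, was the nearest TSS of 3 called regions, with log2 fold changes of -0.71 to -0.90. Of these, 2 overlapped both Cpxm2 and the full annotated span of Fgfr2, a receptor of fibroblast growth factors, and 1 overlapped that of Fgfr2 alone. None of the 3 was nearest to a TSS of Fgfr2. The promoter region of Lum, which encodes the collagen-binding proteoglycan lumican, differed by -1.94 ± 0.36. An exonic region of Sox6, a transcription factor of cartilage formation, lay 237 kb from its TSS and differed by -0.83 ± 0.18. Cstf2t, an RNA 3' end processing factor within Prkg1, had a region at 64.1, 58.5 and 62.5 reads in young and 41.3, 20.4 and 31.9 in old libraries.

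Several lower regions were short and poor in reads. An intergenic region of 1.5 kb, 531 kb from the connexin gene Gja1, held 19, 12 and 21 reads as sequenced in the young libraries and 5, 0 and 2 in the old ones. A 2.5-kb intron region of Mgat4c, which belongs to a family of N-glycan branching enzymes, held 18, 10 and 13 reads as sequenced in young and 1, 0 and 2 in old libraries. With 3 reads in all in old cells, the young level was 10.0 times the old one, with a 95% interval of 3.20 to 50.6 that covers counting error only. Regions near Krt12 (a keratin of the cornea), Clec14a (an endothelial lectin) and Samd5 lay between genes, at 14.8, 154 and 117 kb from these TSSs, with log2 fold changes of -1.80, -1.42 and -0.94. The last lower region lay in Dnm3, a dynamin, with 4930558K02Rik as the nearest TSS, and differed by -0.47.

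All 10 higher regions overlapped a gene, but 1 of 10 covered a TSS, against 6 of the 16 lower ones and 28.5% of all regions. Of all 31104 regions, 10185 were intergenic and outside promoters. Mical2 encodes an enzyme that oxidises and disassembles actin filaments. Its region of 124 kb (chr7:112223001-112347000) held 508.9, 592.7 and 657.2 reads in young and 769, 913 and 858.9 in old libraries. Every old library exceeded the highest young one, and the log2 fold change was 0.53 ± 0.08 (limma adjusted p = 0.00141). A region of 122.5 kb within Cux1, a homeobox gene, was nearest to the adaptor gene Sh2b2 and held 385.6, 417.1 and 397.5 reads in young and 524.7, 629.6 and 501.5 in old libraries, again apart, with a log2 fold change of 0.46 ± 0.08 (limma adjusted p = 0.00841). These were the longest of the 26 regions, and the change at Sh2b2 was the smallest in size.

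Ank, which exports pyrophosphate, an inhibitor of mineral deposition, had 3 called regions, with log2 fold changes of 0.86 ± 0.15, 1.58 ± 0.32 and 1.85 ± 0.35. All 11 regions assigned to Ank were higher in old cells, with a median log2 fold change of 0.80, and 8 had an unadjusted p under 0.05. Their sum was 310.5, 349.0 and 426.9 reads in young and 557.9, 777.0 and 442.8 in old libraries. It was not called, with a wide spread between the old libraries (log2 fold change 0.68 ± 0.25, limma adjusted p = 0.497). The other higher regions lay in Sh3bp4, an adaptor of endocytosis, Epb41l1, a protein of the membrane skeleton, Cacna1c, the pore subunit of an L-type calcium channel, Apbb2, an adaptor of the amyloid precursor protein, and Mthfd1, a folate enzyme next to the kinase A anchor Akap5. The Akap5 region held 4.9, 5.0 and 5.0 reads in young and 22.4, 32.2 and 15.4 in old libraries (1.96 ± 0.35). The Apbb2 region held 1.4, 1.2 and 2.1 reads in young and 12.9, 18.7 and 12.1 in old libraries (2.54 ± 0.48). Neither region exceeded 5.0 reads in a young library.

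Lower called regions had a median GC content of 43.3% and higher ones of 48.1%. After the smooth trend of signal with GC content was removed from each library, 22 of the 26 were still called, and the total was 29, with 14 higher and 15 lower. The 4 lost were the regions of Samd5, Sox6 and Epb41l1 and the promoter region of Slc1a3.

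H3K27ac was then summed over all regions within 100 kb of the TSS of a gene, to ask which genes gained or lost acetylation as a whole. Of 13612 autosomal genes with at least 1 region, 28 were called (0.206%), 8 higher (0.0588%) and 20 lower (0.147%), and 1356 (9.96%) had an unadjusted p under 0.05, 626 higher (4.6%) and 730 lower (5.36%). Among the 28, 15 held no called region. In all 28 the ages did not overlap, which held for 14.4% of all gene sums (7.32% upward and 7.11% downward). Of these calls, 7, 17 and 24 were kept without young replicate 1, 2 or 3, and 27, 19 and 24 without old replicate 1, 2 or 3. The 7 genes called in all 6 fits were Hoxa13, Mef2c, Mfge8, Slc1a3, Sorbs2, Hoxd9 and Hoxd10, of which the last 2 share 1 region. From regions over promoters alone, 8 genes were called.

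Mef2c, a transcription factor of muscle, bone and vessels, lost acetylation without a called region. Its sum over 9 regions was 238.3, 208.4 and 192.2 reads in young and 153.3, 95.4 and 117.4 in old libraries. All 9 regions were lower in old cells, and the log2 fold change of the sum was -0.82 ± 0.13 (limma adjusted p = 0.00112). Dcn, encoding decorin, a regulator of collagen fibrils, had 8 of 8 regions lower and sums of 306.9, 222.0 and 247.9 reads in young and 185.4, 134.0 and 153.0 in old libraries (-0.71 ± 0.11, limma adjusted p = 0.00112). Its ages did not overlap either. The sum of Lum, its neighbour on chromosome 10, differed by -1.08 ± 0.21 and was called in 4 of the 6 fits without a library, that of Dcn in 5.

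Sorbs2, an adaptor of actin and focal adhesions, had 17 of 18 regions lower, with sums of 488.0, 465.0 and 516.4 reads in young and 389.0, 331.6 and 335.1 in old libraries (-0.48 ± 0.08, limma adjusted p = 6.97e-04). The 6 regions of Slc1a3 were all lower (-0.62 ± 0.10), as were the 6 of Cpxm2 (-0.74 ± 0.11), the 12 of Rcan2 (-0.48 ± 0.08), a regulator of calcineurin, and the 5 of Btbd3 (-0.63 ± 0.12). Of the 10 regions of Sox6 within 100 kb, 7 were lower (-0.52 ± 0.10, limma adjusted p = 0.0105). Further genes called lower were Tox, an HMG-box factor (-0.95 ± 0.19), Sesn3, a stress-induced sestrin (-0.62 ± 0.14), Rftn2, a lipid raft protein (-0.44 ± 0.10), Plxdc2 (-0.43 ± 0.09) and Rad51b, a recombination factor (-0.40 ± 0.09). Krt12, Cstf2t and 4930558K02Rik completed the lower genes. Genes that share a promoter region, such as Rad51b and Zfyve26, cannot be told apart.

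Mfge8, which links apoptotic cells to phagocytes, gained most among the called genes. Its 3 regions summed to 31.8, 28.4 and 33.7 reads in young and 61.5, 78.7 and 64.6 in old libraries. Each old library held more than any young one, and the log2 fold change was 1.09 ± 0.18 (limma adjusted p = 6.97e-04). Jade1, a subunit of a histone acetyltransferase complex, rose from 20.5, 30.8 and 31.5 to 45.0, 53.6 and 53.9 reads (0.87 ± 0.20, limma adjusted p = 0.0463). Sh3bp4 had 10 of 10 regions higher (0.52 ± 0.10), Ksr1, a scaffold of the MAP kinase cascade, 12 of 13 (0.41 ± 0.09), Tanc1, a scaffold protein, 7 of 8 (0.34 ± 0.08), and Apbb2 4 of 4 (0.33 ± 0.07). Mical2 and Sh2b2 were called as sums too. The next genes in rank, Rem1, Nectin1, B4galt5 and Hoxc4, were not called by limma (adjusted p of 0.0547 to 0.0606) but were by edgeR (adjusted p of 0.0287 to 0.0303). After the GC correction the sums of Jade1, Ksr1, Rftn2 and Rad51b were no longer called (limma adjusted p of 0.0542 to 0.0945), and that of Jade1 was called in 2 of the 6 fits without a library. Among 1180 genes with at least 5 regions, all regions were higher in 49 and lower in 73.

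**Figure D2:**
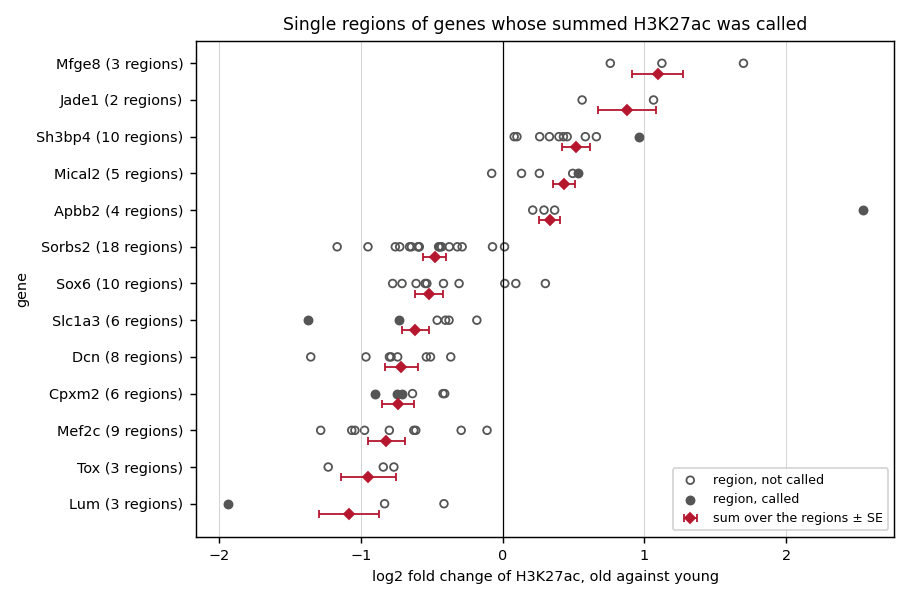
Log2 fold change of H3K27ac, old against young, for each region (circles, filled where called) of 13 genes whose sum was called, and for the sum with its SE (red diamonds). All regions of Mfge8, Jade1, Sh3bp4 and Apbb2 lie to the right of 0 and all of Slc1a3, Dcn, Cpxm2, Mef2c, Tox and Lum to the left.

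Gene groups were described through 50 lists of genes, by the number of their regions at an unadjusted p under 0.05 and by their median log2 fold change. Over all autosomal regions the median was -0.0015, and the shares were 4.68% upward and 4.93% downward. Over all gene sums the shares were 4.6% and 5.36%.

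The small leucine-rich proteoglycans, which bind collagen and shape its fibrils, had 27 regions with a median of -0.41. Of these, 13 (48.1%) were lower at an unadjusted p under 0.05 and 0 higher, and 1 was called, that of Lum. Most of the 13 lay at neighbours on chromosome 10, with 7 at Dcn, 2 at Lum and 1 at Epyc. The others were 1 each at Ogn, Aspn and Prelp. The regions of the list summed to 1712, 1543 and 1433 reads in young and 1339, 1072 and 1335 in old libraries, without overlap between the ages. All 11 gene sums were below 0. Next to the called Lum and Dcn stood Epyc (-0.88 ± 0.28), Ogn (-0.35 ± 0.14), Aspn (-0.33 ± 0.11), Fmod (-0.25 ± 0.11) and Prelp (-0.19 ± 0.09), each at an unadjusted p under 0.05 by limma, and Kera, Ecm2, Podn and Omd, which were not. The genes are partly neighbours, with Lum, Dcn, Epyc and Kera on chromosome 10 and Ogn, Omd, Aspn and Ecm2 on chromosome 13. The list had a median GC content of 39.3%, against 44.7% for all regions, and its median relative to all regions was -0.36 after the GC correction.

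Cartilage genes had 51 regions with a median of -0.18, of which 17 (33.3%) were lower and 3 (5.88%) higher at an unadjusted p under 0.05. Without old replicate 2 that median was -0.09. Of the 17 lower regions, 5 lay at Sox6. The list had a median GC content of 41.75%, against 44.7% for all regions. Of the 12 gene sums limma called that of Sox6, and edgeR also those of Acan (adjusted p = 0.0423) and Cnmd (adjusted p = 0.0455). Acan, the main proteoglycan of cartilage, held 181.8, 159.1 and 168.7 reads in young and 133.4, 127.3 and 122.8 in old libraries, without overlap (-0.41 ± 0.11, limma adjusted p = 0.0759). Cnmd, which encodes chondromodulin, was at -1.04 ± 0.27 (limma adjusted p = 0.0690), and Hapln1, Prg4 and Comp were at -0.46, -0.33 and -0.32. Col2a1, the collagen of cartilage, lay on the other side, with 139.3, 217.1 and 206.9 reads in young and 232.2, 269.6 and 227.3 in old libraries (0.39 ± 0.13, limma adjusted p = 0.256). Sox9, the master factor of the lineage, was at 0.20 ± 0.20.

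Among patterning genes, the posterior Hoxa and Hoxd list had 5 regions, all below 0, with a median of -0.69 (-0.40 without old replicate 2), and 2 were called. The list included Evx1, which is not a Hox gene, and Hoxd8. Their gene sums were at -0.55 ± 0.34 and -0.72 ± 0.41 and were not called. Hoxa9, Hoxa10 and Hoxa11 shared 1 region with the anterior genes Hoxa3, Hoxa6 and Hoxa7, at -0.04 ± 0.08 as a gene sum, with overlapping ages. The 7 regions of Hoxb and Hoxc had a median of 0.19 (0.07 without old replicate 3). Of these, the 103-kb region over Hoxc4 to Hoxc11 held 723.9, 753.3 and 730.3 reads in young and 929.0, 831.5 and 917.2 in old libraries (0.28 ± 0.06, limma adjusted p = 0.0535), apart but not called by limma, while edgeR called the sums of these 7 genes (adjusted p of 0.0287 to 0.0343). All 7 sums contain this same region, so they are not independent. Other limb genes lay on both sides. Tbx4, a factor of the hindlimb, had its promoter region at 90.2, 77.2 and 69.6 reads in young and 57.6, 40.7 and 41.8 in old libraries (-0.75 ± 0.17, limma adjusted p = 0.0607) and its sum called by edgeR but not by limma, whereas the sums of Meis1 and Tbx3 were at 0.36 ± 0.11 and 0.36 ± 0.13.

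Muscle genes had 22 regions with a median of 0.23, of which 5 (22.7%) were higher and 0 lower at an unadjusted p under 0.05. The list held 1558, 1569 and 1581 reads in young and 1701, 1727 and 1772 in old libraries, without overlap. Myh11, the myosin of smooth muscle, held 134.4, 135.7 and 130.6 reads in young and 162.9, 174.2 and 164.8 in old libraries (0.32 ± 0.11, limma adjusted p = 0.188). Des, an intermediate filament, was at 0.77 ± 0.21 and Lmod1, an actin nucleator, at 0.16 ± 0.08, and 0 of 8 gene sums were called by limma or edgeR, with 3 at an unadjusted p under 0.05. The defining muscle markers Myod1, Pax7, Myog and Des had no region over their promoter. Endothelial genes had a median of 0.11, with 2 of 30 regions higher at an unadjusted p under 0.05, and epithelial genes a median of -0.14, with 3 of 16 lower. MSC surface genes had 2 of 41 regions higher and 1 lower.

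Stress and signalling lists had smaller shifts. Oxidative stress genes had 44 regions with a median of 0.10, 33 of them above 0, but 3 (6.82%) were higher and 0 lower at an unadjusted p under 0.05. Of 25 gene sums, 5 were higher and 0 lower at this level, and 10 were below 0. The 5 were Gpx3 (0.62 ± 0.19), a peroxidase, Txnrd1 (0.37 ± 0.12), a thioredoxin reductase, Gclm (0.30 ± 0.11) and Gsr (0.28 ± 0.12), which make and reduce glutathione, and Hmox1 (0.18 ± 0.09), which breaks down haem. In the MAP kinase list 8 of 104 regions were higher and 0 lower at an unadjusted p under 0.05. The sums of the phosphatases Dusp4, Dusp5 and Dusp16, which switch off MAP kinases, were at 0.56 ± 0.17, 0.37 ± 0.12 and 0.44 ± 0.12, and that of the inhibitor Spry4 at 0.51 ± 0.17. The kinases Mapk9 and Map4k3 were at 0.60 ± 0.19 and -0.21 ± 0.09. In the glycolysis list 6 of 38 regions were higher and 1 lower, with Pfkfb4 and Pfkfb3, which make an activator of glycolysis, at 0.47 ± 0.12 and 0.26 ± 0.09 as sums. In these 3 lists 0 gene sums were called by limma or by edgeR. At an unadjusted p under 0.05 by limma, 5, 6 and 3 sums were higher and 0, 1 and 1 lower. In the MAP kinase list 15 of 38 sums were below 0, and in the glycolysis list 11 of 20.

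In the Wnt list 12 of 157 regions (7.64%) were lower and 4 (2.55%) higher at an unadjusted p under 0.05, with a median of -0.06. The sums of 8 of 44 genes were lower and 1 higher at this level, and 0 were called by limma, while edgeR called Dkk2 (adjusted p = 0.0376). Lower were the ligand Wnt16 (-0.41 ± 0.19), the secreted inhibitors Dkk2 (-0.54 ± 0.15) and Sfrp1 (-0.32 ± 0.11), the agonist Rspo3 (-0.79 ± 0.35) and its receptor Lgr5 (-0.70 ± 0.29). Daam1 (-0.40 ± 0.16) and the nuclear factors Tcf7l1 (-0.29 ± 0.11) and Tcf7l2 (-0.15 ± 0.06) were lower as well. Higher was Axin2, a target and inhibitor of the pathway (0.30 ± 0.13). The list of bone matrix and mineral genes had 10 of 51 regions higher, of which 8 were those of Ank, and 4 lower, and its median was -0.03. The sums of the bone matrix proteins Spp1 and Sparc were at -0.26 ± 0.10 and -0.18 ± 0.07, and that of Col1a1 at 0.07 ± 0.07.

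Ageing lists held both directions. In the list of cytokines and the senescence secretome, 3 of 33 gene sums were higher and 4 lower at an unadjusted p under 0.05. Serpine2, a protease inhibitor, and Cxcl5, a chemokine, of the senescence secretome had sums at -0.47 ± 0.11 (limma adjusted p = 0.0552) and -0.44 ± 0.11 (limma adjusted p = 0.0690), and both were called by edgeR (adjusted p of 0.0289 and 0.0392). The interleukin genes Il6 and Il1a were at 0.38 ± 0.16 and 0.77 ± 0.32. In the list of cell cycle inhibitors and senescence genes, 3 of 58 regions were higher and 3 lower at an unadjusted p under 0.05, and 3 of 26 gene sums were higher and 4 lower, with a median of 0.01. The inhibitors Cdkn1a and Cdkn2b were at -0.28 ± 0.13 and -0.21 ± 0.09, and the chromatin protein Hmga1 and the methyltransferase Ezh2 at 0.53 ± 0.18 and 0.27 ± 0.13. Enzymes that set histone acetylation had 66 regions with a median of -0.07, of which 5 were higher and 0 lower at an unadjusted p under 0.05.

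**Figure D3:**
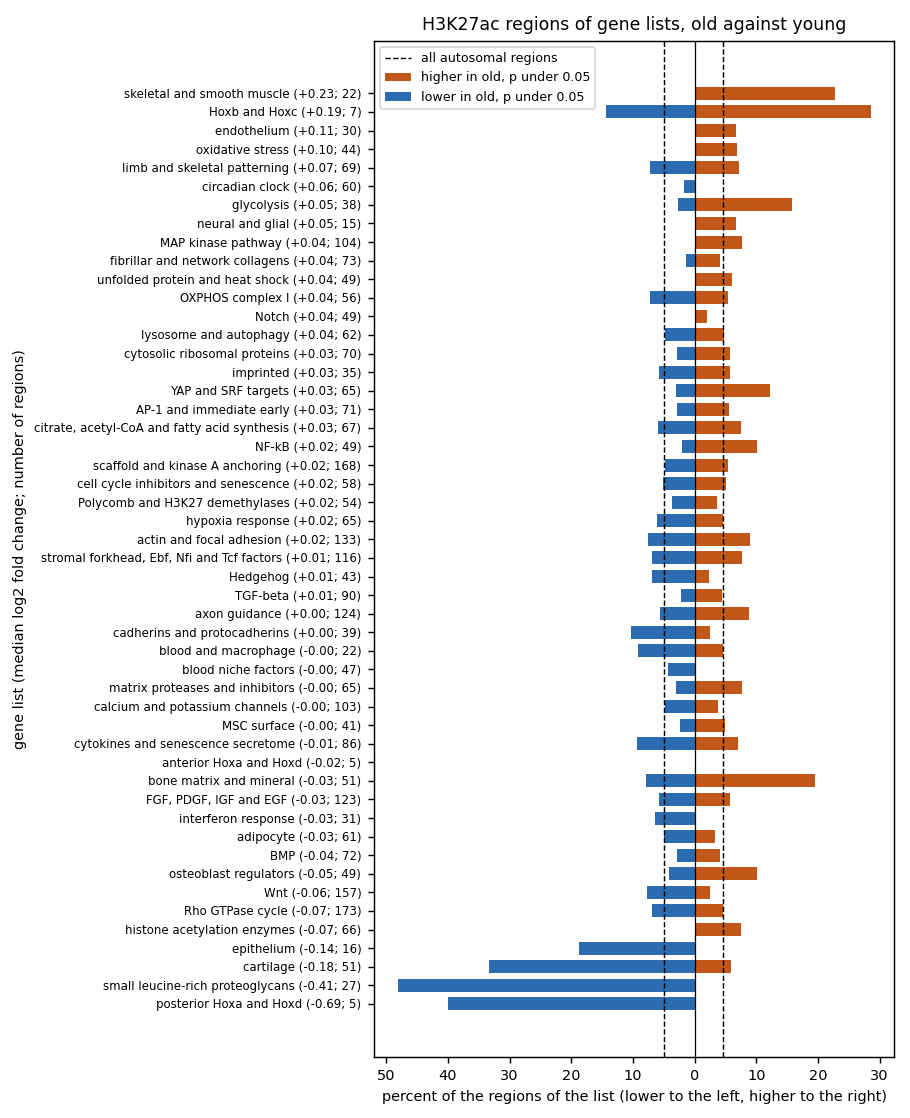
Share of the regions of each of 50 gene lists at an unadjusted p under 0.05, to the right for higher and to the left for lower in old cells, with the median log2 fold change and the number of regions in brackets. Dashed lines mark the shares over all autosomal regions, 4.68% and 4.93%. The lists of small leucine-rich proteoglycans, of posterior Hoxa and Hoxd (5 regions, with Evx1 among the genes) and of cartilage reach furthest to the left.

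Short and long regions differed in direction. Of 6630 regions of up to 2 kb, 3.00% were higher and 5.34% lower at an unadjusted p under 0.05, with a median log2 fold change of -0.08. Of 3822 regions over 20 kb, 9.60% were higher and 3.43% lower, with a median of 0.05. Long regions held a median of 174 reads against 8.33 in the short ones. Reads in regions over 20 kb made up 55.78%, 55.75% and 55.12% of the region reads of the young libraries and 56.04%, 56.29% and 56.37% of those of the old ones, with 95% Wilson intervals for counting error of, for example, 56.19% to 56.39% in old replicate 2. The ages did not overlap, and the means differed by 0.682 percentage points (exact two-sided permutation p = 0.10, the smallest that 3 against 3 samples allow). Regions of up to 2 kb took 3.34% ± 0.08 (SD, n = 3) in young and 3.16% ± 0.07 in old libraries.

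Distance from genes ordered the regions as well. Over a TSS, 4.99% of 8858 regions were higher and 3.06% lower at an unadjusted p under 0.05, with a median of 0.02. Beyond 100 kb, 2.54% of 5857 regions were higher and 8.71% lower (median -0.10), and beyond 500 kb, 0.462% and 10.2% of 433 (median -0.15). The classes between had medians of 0.03 up to 10 kb, 0.01 up to 50 kb, -0.03 up to 100 kb, -0.07 up to 200 kb and -0.12 up to 500 kb. Outside promoters, intergenic regions had a median of -0.07 and intronic ones of -0.04, while regions that touched an exon had 0.06.

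Per library, however, the ages overlapped in the distance classes. The median signal of regions beyond 100 kb minus that of TSS regions, as a deviation from the mean of the 6 libraries, was 0.07, -0.02 and 0.15 in young and 0.04, -0.09 and -0.08 in old libraries. Young replicate 2 lay below old replicate 1, and the means differed by -0.11, with SDs of 0.08 in young and 0.07 in old libraries (n = 3 each, exact permutation p = 0.20). The same contrast of regions over 20 kb with those of up to 2 kb did not overlap, with -0.10, -0.03 and -0.15 in young and -0.02, 0.09 and 0.02 in old libraries (exact permutation p = 0.10).

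Regions rich and poor in GC differed in direction too. Of 5 classes of about equal size, the one lowest in GC had a median of -0.07, with 2.56% higher and 8.08% lower, and the one highest in GC a median of 0.07, with 7.46% higher and 2.27% lower. The contrast of these classes, highest minus lowest, was -0.15, 0.01 and -0.09 in young and -0.02, 0.09 and 0.14 in old libraries, with overlap (exact permutation p = 0.20). Regions beyond 100 kb had a median GC content of 42.2% and TSS regions of 46.9%, whereas short and long regions were alike at 44.8% and 44.6%. After the GC correction the distance contrast was -0.07 (exact permutation p = 0.30) and the length contrast 0.12 (exact permutation p = 0.10). Within the 5 GC classes the distance contrast was -0.14, -0.08, -0.06 and -0.07 from the lowest to the fourth, and 0.03 in the highest (exact permutation p of 0.20 to 0.60).

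**Figure D4:**
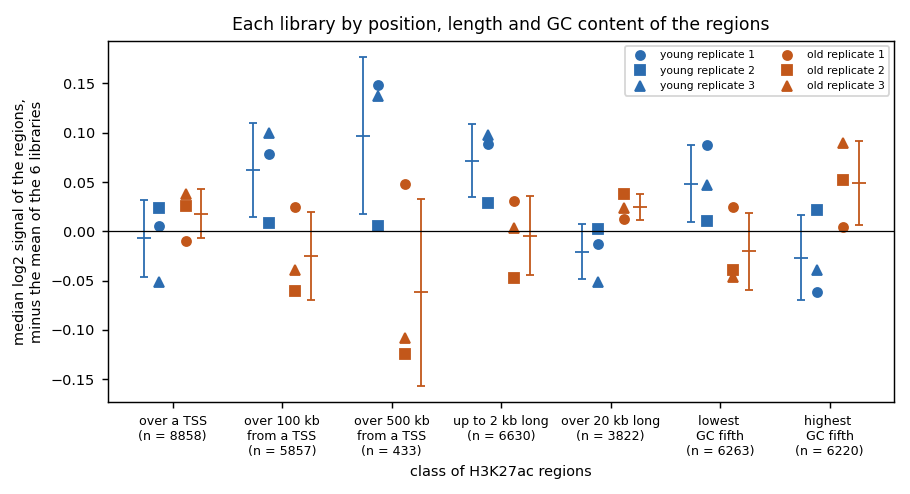
Median log2 signal of classes of regions in each library, as a deviation from the mean of the 6 libraries, with 1 point per library and the mean ± SD of each age beside the points. In regions over 20 kb the 3 old libraries lie above the 3 young ones. In regions of up to 2 kb and in the classes by distance and GC content the ages overlap.

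By chromosome, the share of autosomal region reads did not overlap between the ages on 6 of 19 autosomes. It was higher in old cells on chromosomes 5, 8 and 11 and lower on 3, 13 and 16, with an exact permutation p of 0.10 each and 0.292 after adjustment over the 19. Without young replicate 2 or old replicate 1, 11 autosomes did not overlap. Chromosome 11 took 7.36%, 7.51% and 7.33% of the reads in young and 7.54%, 7.53% and 7.57% in old libraries. Chromosome 3 took 5.71%, 5.59% and 5.72% in young and 5.58%, 5.49% and 5.49% in old libraries. These shifts, 0.148 and -0.157 percentage points, were small beside the shares. Across the 19 autosomes, all measured in the same 6 libraries, the median log2 fold change ran from -0.04 on chromosome 3 to 0.05 on chromosome 11 and followed the median GC content of the regions (Pearson r of 0.909, Spearman rho of 0.90, as a description). The log2 fold changes of neighbouring regions were weakly correlated, with a Pearson r of 0.169 for 4035 pairs less than 5 kb apart. It was 0.178 for 12747 pairs at 5 to 20 kb and 0.130 for 10888 pairs at 20 to 100 kb. For 2770 pairs at 100 to 500 kb it was 0.095. Counting error in regions with a median of 22 reads lowers such values, by an amount that was not measured.

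**Figure D5:**
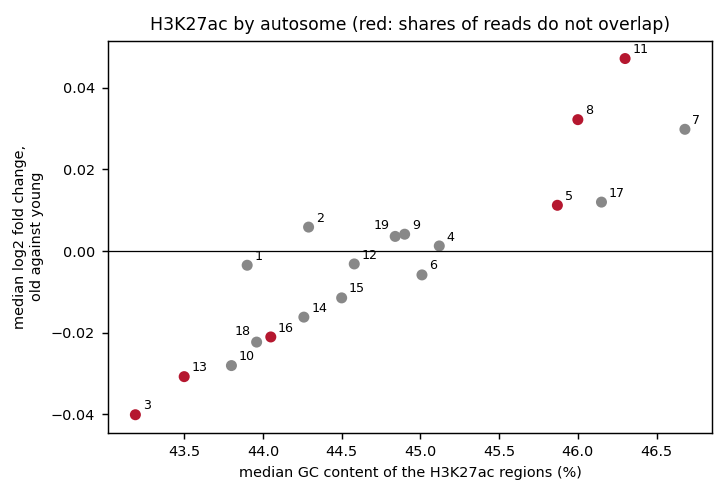
Median log2 fold change of the H3K27ac regions of each autosome (vertical axis) against their median GC content in percent (horizontal axis), with 1 point per autosome and its number beside it. Red points are the 6 autosomes whose share of reads did not overlap between the ages, and chromosome 11 lies highest and chromosome 3 lowest.

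H3K27me3 from the other tubes of the samples was examined under the called regions. An H3K27me3 region overlapped 9 of the 16 lower regions (56.2%), 0 of the 10 higher ones and 4946 of all 31104 (15.9%). Any shared base counted as overlap, and at Samd5 it was 1 kb. The lower regions were longer, with a median of 12 kb against 6.5 kb for the higher and 4.5 kb for all regions. The part of length in these shares was not tested. The 9 met 12 H3K27me3 regions, of which 1 was called by limma, against 0.492% of all H3K27me3 regions. At an unadjusted p under 0.05 there were 6, against 13.9% of all H3K27me3 regions. The 6 were all higher in old cells, while the 13.9% counts both directions. They were 3 neighbouring regions at Cpxm2 and 1 each at Slc1a3, Lum and Cstf2t, so they are not independent. The called one (chr19:31068501-31079500) shared 6 kb with the lower region named after Cstf2t and ended before the Cstf2t promoter (chr19:31082591-31082840). It held 31.2, 36.9 and 30.7 reads in young and 55.3, 81.4 and 61.7 in old libraries, without overlap (0.95 ± 0.19, limma adjusted p = 0.0282). It was not called without young replicate 1 or 2, which left 0. At Lum, H3K27me3 held 96.4, 134.4 and 254.4 reads in young and 247.6, 313.1 and 201.3 in old libraries, with overlap (0.74 ± 0.31). The H3K27me3 domains over Hoxa13 and Hoxd10 were at 0.01 ± 0.12 and -0.15 ± 0.08, also with overlap. Of the 12 H3K27me3 regions, 3 lay at Cpxm2 and 3 at Slc1a3.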

How the data were processed

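Per the labels, H3K27ac and H3K27me3 were profiled by CUT&RUN in MSCs from young and old mice. The submitters' processing notes name Bowtie2, Picard and mm10 (GRCm38), with no versions; the region caller is not given in the sources used here. The authors deposited 1 signal table per mark, named RPKM but not divided by region length; 100% of values were whole multiples of the signal of 1 read in 0.5 kb (tolerance 0.01 reads), so whole reads were recovered. Signal was scaled by median-of-ratios factors, and log2(signal + 0.5) was fitted with limma 3.58.1 (trend, robust, two-sided; R 4.3.3), adjusted over the whole table by Benjamini-Hochberg. A fold change on this scale understates that of regions with few reads. edgeR 4.0.16 and DESeq2 1.42.0 on the recovered reads were alternatives. Shares were compared by exact permutation (scipy 1.17.1).

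Regions were assigned to the nearest protein-coding TSS within 100 kb, although called regions further away are named too. Named were all called regions, the 12 genes of smallest p per direction in the gene sums and, per list, called regions and the smallest p per direction; further list genes were chosen after their values were seen. The members and lists were chosen with earlier results of these data known. Scripts were tested on simulated data. The yeast spike-in was not used here.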

Additional observations from a re-analysis of the deposited data

How the results depend on the processing

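The 26 regions and 28 genes called by limma depended on the model. For regions, edgeR called 94, DESeq2 6, a pseudocount of 0.1 gave 14 and of 1 gave 44, and the signal as deposited 103 (15 higher, 88 lower). limma without trend and robust moderation called 0 regions, with 2616 at an unadjusted p under 0.05 (edgeR 94, DESeq2 6), and 0 genes, with 1123 at that level (edgeR 81, DESeq2 15). For genes, promoter regions alone gave 8. The GC correction, chosen after seeing the data, gave 29 regions and 26 genes. With each library left out in turn, 2 to 45 regions (2 without young replicate 1, 4 without old replicate 2, 10 without young replicate 3, 45 without old replicate 1) and 7 to 71 genes (7 without young replicate 1, 44 without young replicate 3, 71 without old replicate 1, 58 without old replicate 3) were called. The non-overlapping autosomes numbered 6 to 11 and the called H3K27me3 regions 0 to 1 in such fits, and by the median log2 signal 2 autosomes did not overlap. The difference in the share of reads in regions over 20 kb ran from 0.466 to 0.798 percentage points.

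Same-numbered samples did not deviate together (r of 0.065, 0.013 and -0.055). These values cannot decide whether such samples shared a batch or preparation, which the labels do not give. With the replicate number as a block, 79 regions (45 higher, 34 lower), 81 genes (33 higher, 48 lower) and 1 H3K27me3 region were called, and the paired exact permutation of the share gave p = 0.25. By limma fewer regions were called higher than lower (10 and 16), whereas edgeR (54 and 40) and the fit with the block called more higher ones. No called region or gene changed its direction under these alternatives. The medians of 15 classes and lists, relative to all regions, kept their sign in 16 settings, with 2 exceptions. That of bone matrix and mineral genes was above 0 without old replicate 1 and without young replicate 3 (range -0.06 to 0.06), and that of the lowest GC class was at 0.0012 after the GC correction. Other medians moved by over 1.5 times but not in sign: cartilage ran from -0.31 to -0.09, posterior Hoxa and Hoxd from -0.96 to -0.40, Hoxb and Hoxc from 0.07 to 0.30, Wnt from -0.10 to -0.03, MAP kinase from 0.0068 to 0.07, oxidative stress from 0.08 to 0.15, TSS regions from 0.0035 to 0.04, regions over 20 kb from 0.03 to 0.06, the highest GC class from 0.00058 to 0.10 and regions beyond 100 kb from -0.13 to -0.07. Depth limits the short regions most: the median region held 12 to 30 reads.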

Other observations

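Of 25 gene families picked by symbol, 5 are described here by their H3K27ac regions at an unadjusted p under 0.05 by limma. Over all regions the shares were 4.68% higher and 4.93% lower in old cells. Several of the families left out were near these shares. Integrins were at 5.17% in each direction, and solute carriers at 4.58% higher and 5.38% lower. Of 36 regions at Sox genes, transcription factors with an HMG box, 8 (22.2%) were lower and 2 higher, but 5 of the 8 belonged to Sox6, which also held a called region further from its TSS. Over the 11 Sox gene sums the median was 0.03, with 1 lower, the called sum of Sox6, and 0 higher. Of 21 regions at histone genes 5 (23.8%) were lower and 1 higher, with a median log2 fold change of -0.09. Histone genes are clustered and share regions, so 12 of 55 gene sums at that level were not independent. ADAM and ADAMTS genes, proteases of matrix and cell surface, had 10 of 90 regions lower and 4 higher. T-box genes, regulators of limb and heart patterning, had a median of -0.22 over 22 regions, with 3 lower and 1 higher, whereas the median of their 10 gene sums was 0.01. Semaphorins and plexins, guidance ligands and their receptors, had 6 of 67 regions higher and 2 lower. None of the regions of these 5 families within 100 kb of a TSS was called by limma.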
